A study of Mus musculus with 8 samples.

Results

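The zinc-dependent histone deacetylase genes were examined in the hippocampus of mice aged 12 months, labelled as knockout for Dclk3 (KO) or as wild type (WT). The members were 10 genes chosen by name, Hdac1, Hdac2, Hdac3, Hdac4, Hdac5, Hdac6, Hdac7, Hdac8, Hdac9 and Hdac11, out of 31417 genes in the count table. All 10 were found and all 10 passed the filter on low counts, which kept 16228 genes. Poly(A) RNA of a single hippocampus per library was sequenced, with 4 KO and 4 WT libraries. Each library therefore mixes neurons, glia and vessel cells, and fewer cells of a type and less RNA per cell cannot be told apart. The labels do not say how the Dclk3 allele was made, which strain was used or whether the libraries of a genotype came from separate animals, so that p-values measure the spread between these libraries, which may be partly technical.

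Histone deacetylases remove acetyl groups from lysines of histones and of other proteins, and acetylated histone tails mark chromatin that is open for transcription. Class I enzymes (Hdac1, Hdac2, Hdac3, Hdac8) are mainly nuclear, and Hdac1, Hdac2 and Hdac3 work inside large corepressor complexes. Class IIa enzymes (Hdac4, Hdac5, Hdac7, Hdac9) bind MEF2 transcription factors and are moved out of the nucleus by 14-3-3 proteins after phosphorylation, also in active neurons. Class IIb is represented by Hdac6, a mainly cytoplasmic enzyme that deacetylates tubulin, and class IV by Hdac11 alone. In mice, Hdac2 and Hdac3 are known as restraints on memory formation in the hippocampus.

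Class IIa differs from the other classes at 1 codon of the active site, which is shown because the comparison below is made by class. Stretches of 33 bases were read from the GENCODE M21 transcripts of mm10, with the codon of the catalytic tyrosine, or of the histidine that stands in its place in class IIa, in capitals. Class IIa enzymes are known to have little deacetylase activity of their own for this reason. The codon is number 304 of Hdac2, 1017 of Hdac5, 845 of Hdac7, 781 of Hdac6 and 304 of Hdac11, counted from the start codon. The transcript used was the one with the longest coding sequence, called the longest coding transcript below. All 4 class IIa genes held CAT there, and Hdac1, Hdac2, Hdac8, Hdac6 and Hdac11 held TAC or TAT, and Hdac3 is not shown.
Hdac2 (class I): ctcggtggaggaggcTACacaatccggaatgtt
Hdac5 (class IIa): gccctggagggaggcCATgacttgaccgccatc
Hdac7 (class IIa): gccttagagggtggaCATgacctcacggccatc
Hdac6 (class IIb): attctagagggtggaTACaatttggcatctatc
Hdac11 (class IV): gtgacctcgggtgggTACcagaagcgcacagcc

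Libraries held 29301974 to 36552757 counts. Levels are given as CPM, which is counts relative to library size after scaling for composition with TMM factors, or as RPKM, which is CPM per 1000 bases of the union of a gene's exons. Dclk3, the targeted gene, stood at 5.92 to 9.29 CPM in KO libraries and 20.8 to 39.3 CPM in WT libraries, with a log2 fold change of -1.79 (SE 0.22). Its edgeR adjusted p was 0.234, and it was not called, whereas without WT replicate 2 the adjusted p was 0.0121. Dclk3 kept 171 to 301 counts per KO library, and whether these come from a working transcript was not tested. On the first principal component, which held 26.7% of the variance, WT replicate 2 (35.8) and KO replicate 1 (-26.1) lay farthest apart. Markers of neurons, dentate granule cells, CA1 and CA3 pyramidal cells and glia were all detected. Choroid plexus markers, which come from tissue beside the hippocampus, summed to 185 to 3439 CPM in KO libraries and 72.4 to 2212 CPM in WT libraries. Of 13 marker lists, 2 had summed levels that did not overlap between genotypes. Dentate granule cell markers (8 genes, all with a log2 fold change above 0) summed to 743 to 821 CPM in KO and 639 to 718 CPM in WT. GABA neuron markers (6 genes) summed to 799.8 to 831 CPM in KO and 893 to 939 CPM in WT, with 4 genes, Gad1, Gad2, Slc32a1 and Sst, below 0 and Pvalb and Vip above 0, and their mean log2 level per gene, which weighs genes equally, did overlap. Among lists whose sums overlapped, all 6 neuron, all 6 CA1 and all 6 CA3 genes had log2 fold changes below 0. Their medians were -0.077, -0.11 and -0.099. All 10 oligodendrocyte and all 6 microglia genes lay above 0, with medians of 0.14 and 0.049. The remaining lists had genes on both sides of 0. The part of these cell type differences in the deacetylase values was not tested.

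No histone deacetylase gene was called between genotypes at an adjusted p under 0.05. In the same edgeR fit 0% of the 16228 tested genes were called, so the count of 0 of 10 members equals the background. DESeq2 called 5 genes, of which 0 were members. At an unadjusted p under 0.05 there was 1 member of 10, Hdac7, beside 6.16% of all tested genes and 3.96% of tested genes for the higher side alone. In 0 of 10 members did the KO libraries lie all above or all below every WT library, beside 3.8% of tested genes. The members were split evenly by sign, with 5 above and 5 below 0. Their median log2 fold change was -0.0095, against 0.00029 over all tested genes. Leaving out KO replicate 1 brought the members above 0 to 3.

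**Figure D1:**
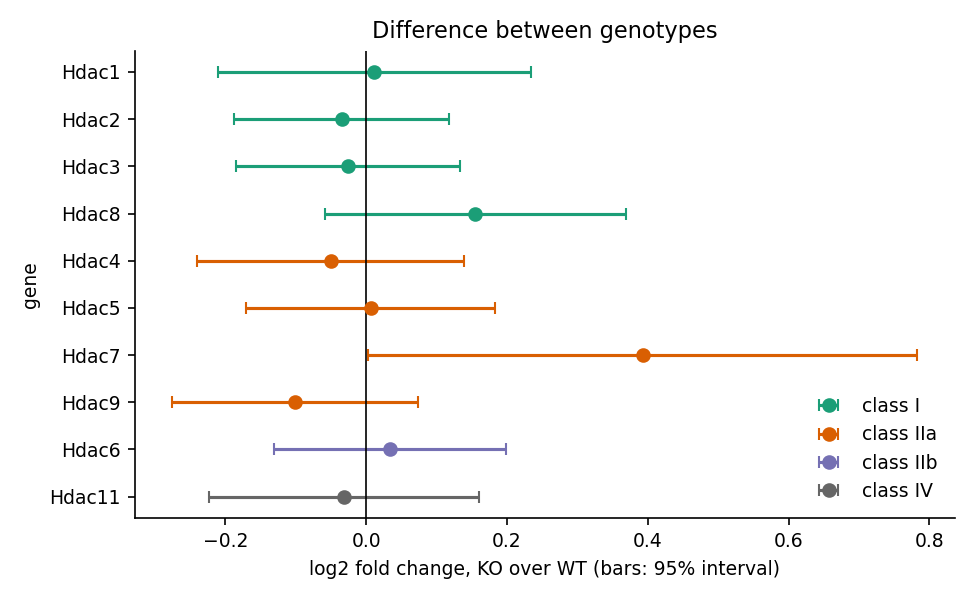
Log2 fold changes of KO over WT for the 10 histone deacetylase genes, grouped by class from class I at the top to class IV at the bottom; points are edgeR estimates from 4 KO and 4 WT libraries and bars are 95% intervals of each gene alone. The interval of Hdac7 runs from 0.0020 to 0.78 and the other 9 intervals span 0.

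Per length, Hdac11 had the highest level of the family by a wide margin and the order ran through all classes. Hdac11 stood at 53.2 ± 3.04 RPKM in KO and 54.4 ± 6.30 RPKM in WT (mean ± SD, n = 4 each), above 95.7% of all tested genes with a known length. Its libraries, 45.2 to 58.6 RPKM over both genotypes, did not overlap those of Hdac5, the next gene, at 17.6 to 23.2 RPKM. Hdac5, Hdac3 and Hdac2 followed with means over the 8 libraries of 20.1, 17.4 and 14.9 RPKM, and each overlapped its neighbour in that order. Hdac6 (7.61 RPKM) and Hdac4 (4.10 RPKM) did not overlap the genes next to them in the order. The lowest library of Hdac4 (3.55 RPKM) lay close to the highest of Hdac9 (3.53 RPKM), and below the highest of Hdac7 (4.13 RPKM), which was the same library, KO replicate 1. Hdac9 (3.04 RPKM), Hdac8 (2.82 RPKM), Hdac7 (2.78 RPKM) and Hdac1 (2.09 RPKM) overlapped one another in sequence.

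The order of the lower genes depends on the length used. The exons of Hdac9 span 14665 bases in union, whereas its longest coding transcript has 3204 bases. Divided by the length of that transcript instead, the mean levels were 13.9 CPM per 1000 bases for Hdac9, 10.9 for Hdac6 and 8.001 for Hdac4. This moved Hdac9 to the fifth place. The Hdac9 transcript has 3201 coding bases of 3204, so almost no untranslated sequence, whereas that of Hdac4 has 3228 of 8100. The place of Hdac9 on this scale, and class shares that use it, are therefore uncertain. The order of Hdac11, Hdac5, Hdac3 and Hdac2 was the same with both lengths.

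**Figure D2:**
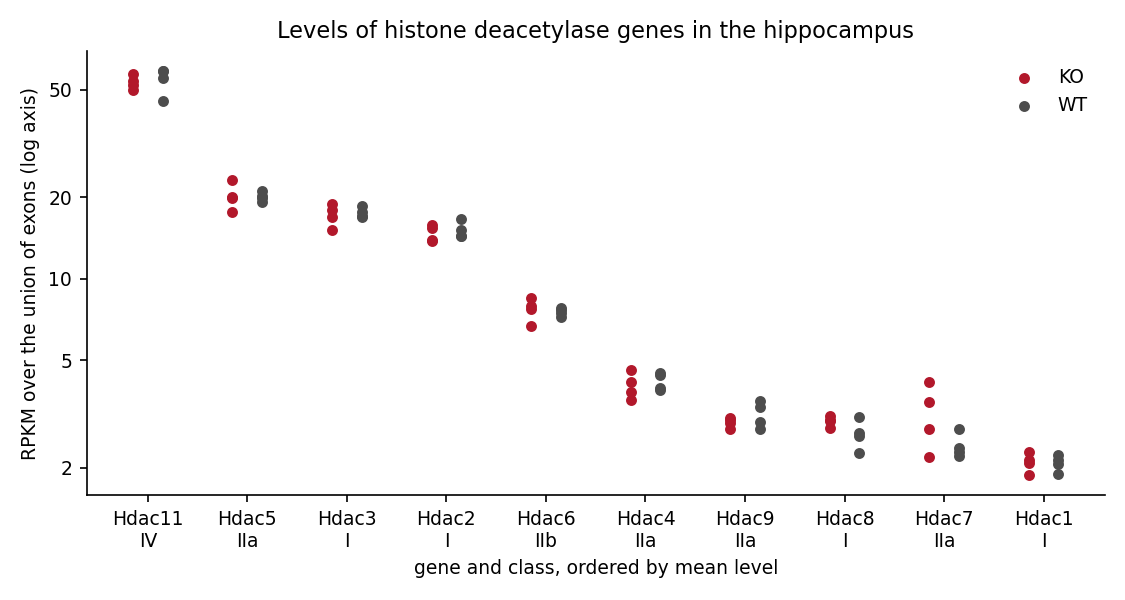
Levels of the 10 histone deacetylase genes in RPKM over the union of exons on a log axis, ordered by mean level, with the class under each gene; each point is 1 library, KO to the left of WT. Hdac11 lies at 45.2 to 58.6 RPKM, above all libraries of every other member, and KO and WT points overlap for every gene.

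By class, summed RPKM gave shares of the family that overlapped between genotypes. Class IV, which is Hdac11 alone, took 41.5% ± 0.30 in KO and 42.0% ± 2.94 in WT (SD, n = 4 each). Class I took 28.9% ± 0.90 in KO and 29.1% ± 2.27 in WT. Class IIa took 23.6% ± 0.74 in KO and 23.1% ± 0.35 in WT, and Hdac6, for class IIb, 5.99% ± 0.29 in KO and 5.84% ± 0.42 in WT. Which class leads depends on the length: divided by the longest coding transcript, an alternative chosen after seeing the data, class I took 33.4% ± 0.98 in KO and 33.5% ± 2.31 in WT, and class IV 32.9% ± 0.31 in KO and 33.3% ± 2.59 in WT. The ranges of the genotypes overlapped for each class with both lengths. WT replicate 2, where Hdac11 was lowest, had the lowest class IV share (37.8%) and the highest class I share (32.3%) of the 8 libraries.

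Among class I genes, Hdac1 and Hdac2 encode the paired catalytic subunits of the NuRD, SIN3 and CoREST complexes. Hdac2 (ENSMUSG00000019777, mm10 chr10:36974544-37001889, plus strand) had 61.9, 62.4, 68.9 and 70.9 CPM in KO replicates 1 to 4, and 67.5, 74.3, 64.4 and 64.3 CPM in WT replicates 1 to 4. The genotypes overlapped, with 2 KO libraries just below the lowest WT library. In log2 terms KO differed from WT by -0.035 (SE 0.069), at an edgeR adjusted p of 0.939, and its 95% interval, like all those given here for 1 gene at a time, covers a difference in KO between -12.2% and 8.52%.

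Hdac3 (ENSMUSG00000024454, minus strand), a class I enzyme that needs a corepressor partner for its activity, had 76.5, 72.8, 68.4 and 61.5 CPM in KO replicates 1 to 4 and 68.3, 71.6, 75.3 and 69.0 CPM in WT replicates 1 to 4. KO replicate 1 lay above and KO replicate 4 below all WT libraries. Hdac3 gave a log2 fold change of -0.025 (SE 0.072), at an edgeR adjusted p of 0.957, with a 95% interval from -12.0% to 9.70%. Hdac8 (ENSMUSG00000067567, chrX:102284639-102505359, minus strand), a class I enzyme that deacetylates cohesin, had 15.1, 13.5, 14.5 and 14.4 CPM in KO and 14.9, 11.0, 12.7 and 13.0 CPM in WT replicates 1 to 4. WT replicate 1 lay within the KO range and the other 3 WT libraries lay below it. The log2 fold change of Hdac8 was 0.15 (SE 0.096), at an edgeR adjusted p of 0.797, with a 95% interval from -3.99% to 29.1% and 353 to 554 counts per library. It was 0.088 without WT replicate 2 and 0.23 without WT replicate 1.

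Hdac1 (ENSMUSG00000028800, chr4:129516104-129542713, minus strand) was the lowest member, with 7.89, 7.34, 7.20 and 6.46 CPM in KO and 7.65, 7.32, 7.13 and 6.55 CPM in WT replicates 1 to 4. The genotypes covered almost the same range, with a log2 fold change of 0.012 (SE 0.10), at an edgeR adjusted p of 0.988 and a 95% interval from -13.6% to 17.7%. This low level is uncertain, because Hdac1 has near-identical processed pseudogenes, and their part in the level was not tested. Of the windows of 50 bases in its coding transcript, 58.7% also occur in transcripts of other genes, mostly Gm10093. Among the other members, Hdac5 shared 0.853% of its windows, with the miRNA gene Mir8101 that lies within it, and the remaining 8 shared none. Transcripts were searched in the same orientation only, so exons that overlap a gene on the opposite strand do not enter these shares. Such overlaps are given below for Hdac4 and Hdac7, and Hdac11 shares 594 exon bases with Gm44002 and 96 with Gm14573. Gm10093 (chr17:78491582-78493025) aligned to Hdac1 over 1444 bases with 9 differences, and its own counts were 1 to 9 per library.

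**Figure D3:**
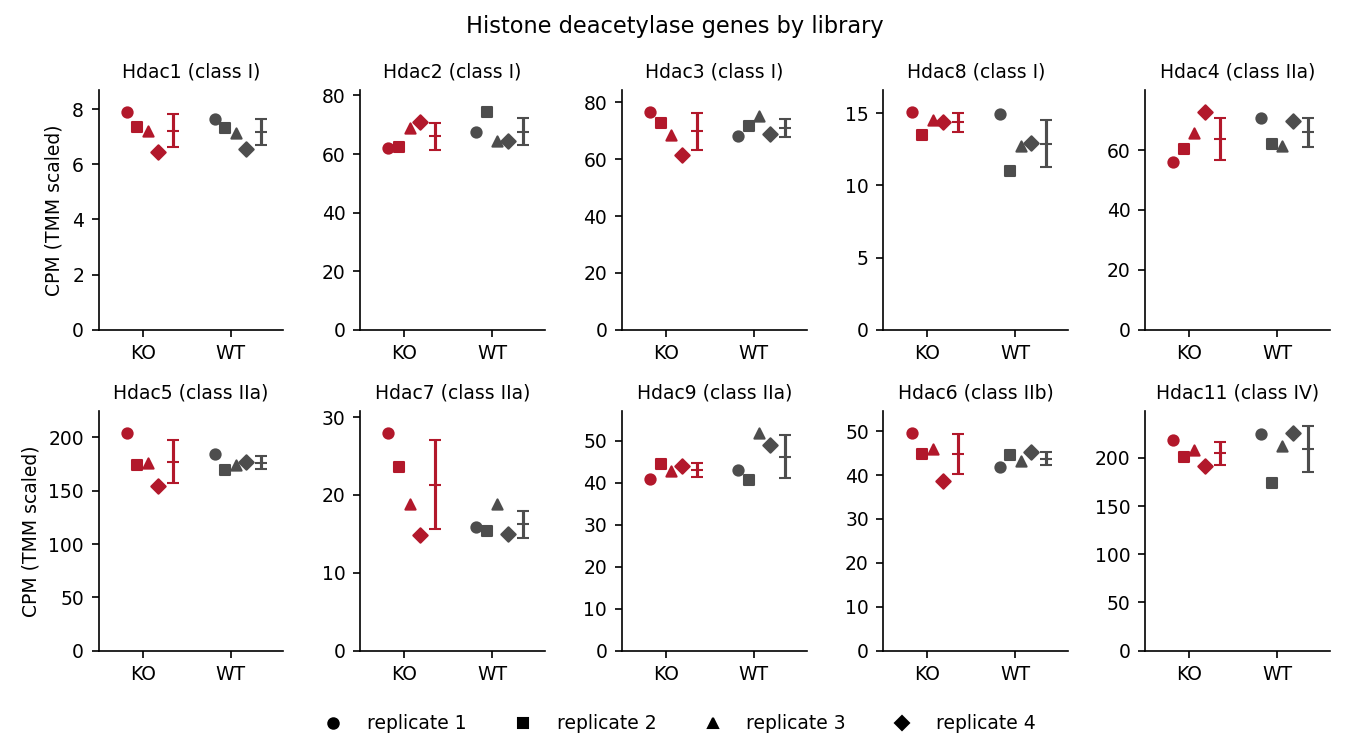
TMM-scaled CPM of the 10 histone deacetylase genes in each library, 1 panel per gene with its axis from 0, KO to the left of WT; symbols mark replicates 1 to 4, and the bar beside each group is its mean ± SD (n = 4). KO replicate 1 is the highest and KO replicate 4 the lowest KO library for Hdac1, Hdac3, Hdac5, Hdac6, Hdac7 and Hdac11, and the genotypes overlap in every panel.

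The stretches below show how alike the Hdac1 transcript and this copy are. They span 61 bases around the first difference with at least 30 aligned bases on both sides, and the differing base is in capitals. A read that lies wholly within the aligned bases and covers no differing base cannot be assigned to either gene. Scaled by the 822 windows of Hdac1 that this search found in no other gene, the Hdac1 mean over the 8 libraries was 8.75 CPM per 1000 windows. Computed the same way, it was 8.05 for Hdac4, 7.23 for Hdac8 and 4.62 for Hdac7, so that Hdac7 and not Hdac1 was lowest on that scale. That scale assumes that no read from the shared windows was counted for Hdac1, and the Hdac1 value is too high if any were. The labels do not say how reads with more than 1 place were counted.
Hdac1: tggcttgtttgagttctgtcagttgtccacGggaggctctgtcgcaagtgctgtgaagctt
Gm10093: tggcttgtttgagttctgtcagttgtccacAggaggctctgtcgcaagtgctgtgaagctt

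Class IIa held the member with the largest log2 fold change in size, Hdac7, and none of its 4 genes was called. Hdac7 (ENSMUSG00000022475, chr15:97792664-97844502, minus strand) is best known for its role in endothelial cells and thymocytes. It had 27.9, 23.6, 18.8 and 14.8 CPM in KO replicates 1 to 4, and 15.9, 15.4, 18.8 and 14.9 CPM in WT replicates 1 to 4. KO replicates 1 and 2 lay clearly above the WT range, KO replicate 3 (18.82 CPM) lay level with the highest WT library (18.79 CPM), and KO replicate 4 lay just below the lowest. The mean was 21.3 ± 5.69 CPM in KO and 16.2 ± 1.74 CPM in WT, a ratio of 1.31.

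The log2 fold change of Hdac7 was 0.39 (SE 0.17) with an unadjusted p of 0.0490 in edgeR's quasi-likelihood test, and its adjusted p was 0.796. The 95% interval reaches from 0.141% to 72.1%, so these libraries leave its size poorly determined. Without KO replicate 1 the log2 fold change was 0.24, and without KO replicate 4 it was 0.53. The unadjusted p was under 0.05 in 7 of 16 alternative fits. The spread within KO, an SD of 0.395 in log2 CPM, was larger than that of 87.7% of tested genes. Summed endothelial markers (10 genes, 9 with a log2 fold change above 0) were 432, 352, 378 and 454 CPM in KO replicates 1 to 4 and 412, 352, 411 and 352 CPM in WT replicates 1 to 4. KO replicates 4 and 1, the lowest and the highest KO library for Hdac7, were the 2 highest for these markers, and the part of endothelial content in the Hdac7 values was not tested. Exons of Hdac7 and of Slc48a1, on the opposite strand, share 29 bases.

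Hdac5 (ENSMUSG00000008855, chr11:102194432-102230166, minus strand), a regulator of activity-dependent transcription in neurons, was the most abundant class IIa gene. It had 204, 174, 176 and 155 CPM in KO replicates 1 to 4, and 185, 169, 174 and 177 CPM in WT replicates 1 to 4. KO replicate 1 lay above and KO replicate 4 below all WT libraries, and the means were 177 ± 20.2 CPM in KO and 176 ± 6.43 CPM in WT. Hdac5 gave a log2 fold change of 0.0063 (SE 0.080), at an edgeR adjusted p of 0.991, with a 95% interval from -11.2% to 13.6%.

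Hdac4 (ENSMUSG00000026313, chr1:91928779-92195699, minus strand), needed for normal memory in mice, had 56.2, 60.4, 65.6 and 72.7 CPM in KO and 70.6, 62.2, 61.2 and 69.6 CPM in WT replicates 1 to 4. Here KO replicate 1 was the lowest and KO replicate 4 the highest library of all 8, the reverse of Hdac5. Hdac4 gave a log2 fold change of -0.050 (SE 0.086), at an edgeR adjusted p of 0.925, with a 95% interval from -15.3% to 10.2%. A long noncoding gene on the opposite strand, Gm26720, shares 3536 exon bases with Hdac4, and it was not analysed here.

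Hdac9 (ENSMUSG00000004698, chr12:34047580-34917095, minus strand), a class IIa gene whose short splice forms lack the catalytic domain, had 40.8, 44.6, 42.9 and 44.0 CPM in KO and 43.2, 40.7, 51.8 and 49.0 CPM in WT replicates 1 to 4. All KO libraries lay within the WT range, in its lower part. Hdac9 gave a log2 fold change of -0.10 (SE 0.079), at an edgeR adjusted p of 0.826, with a 95% interval from -17.4% to 5.28%, and it was -0.035 without WT replicate 3. Counts per gene do not show which splice form was present.

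Hdac6 (ENSMUSG00000031161, chrX:7930120-7947889, minus strand), the tubulin deacetylase of class IIb, had 49.5, 44.9, 46.0 and 38.7 CPM in KO and 41.9, 44.5, 43.3 and 45.3 CPM in WT replicates 1 to 4. The KO libraries spread to both sides of the WT range. Hdac6 gave a log2 fold change of 0.034 (SE 0.074), at an edgeR adjusted p of 0.945, with a 95% interval from -8.66% to 14.8%. Hdac10, the other class IIb gene and a polyamine deacetylase, is not among the 10 members. It had 8.63 ± 2.51 CPM in KO and 7.29 ± 1.31 CPM in WT, with a log2 fold change of 0.24 (SE 0.21), at an edgeR adjusted p of 0.840, and this was 0.12 and 0.15 when KO replicate 1 or 2 was left out, 0.42 when KO replicate 4 was, and 0.39 when WT replicate 3 was. Like Hdac7, it was highest in KO replicate 1, at 10.8 CPM, and lowest in KO replicate 4, at 5.25 CPM.

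Hdac11 (ENSMUSG00000034245, chr6:91156665-91174692, plus strand), the class IV enzyme, is best known for removing long fatty acyl groups from lysines. It had 219, 201, 208 and 191 CPM in KO replicates 1 to 4, and 225, 174, 213 and 226 CPM in WT replicates 1 to 4. The KO libraries lay inside the WT range, which WT replicate 2 extends downward. Hdac11 gave a log2 fold change of -0.031 (SE 0.087), at an edgeR adjusted p of 0.957, with a 95% interval from -14.4% to 11.8%, and it was -0.11 without WT replicate 2.

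Within KO, several members shared their highest and lowest library. KO replicate 1 was the highest and KO replicate 4 the lowest KO library for 6 of 10 members, a pattern chosen after the values were seen. The same held for 16.4% of all tested genes, and the reverse, seen for Hdac2 and Hdac4, held for 16.5%. Opposite orders occurred within a class: Hdac3 and Hdac2 of class I went opposite ways, as did Hdac5 and Hdac4 of class IIa. The SD of log2 CPM within KO ranged over the members from 0.056 for Hdac9 and 0.065 for Hdac8 to 0.40 for Hdac7, with a median over all tested genes of 0.148.

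For the 3 members with the lowest p, the genes of most similar pattern over the 8 libraries were found among 9881 genes of at least 10 CPM. Likeness was the root mean square difference of log2 CPM after each gene was centred and divided by its SD, so that 0 means the same pattern. For Hdac7 these were Tia1 (0.118 SD), Arglu1 (0.143 SD) and Rreb1 (0.158 SD). Tia1 had 93.7, 80.7, 67.5 and 51.6 CPM in KO replicates 1 to 4 and 53.6, 55.0, 63.0 and 50.6 CPM in WT replicates 1 to 4. Arglu1 averaged 87.1 CPM in KO and 60.3 CPM in WT, and Rreb1 58.8 CPM in KO and 36.9 CPM in WT. For Hdac8 they were Pla2g7 (0.155 SD), Nde1 (0.159 SD) and Supt4a (0.167 SD), and for Hdac9 they were Coro1a (0.267 SD), Gda (0.338 SD) and Gprasp2 (0.355 SD). None of these 9 genes was called, with edgeR adjusted p of 0.796 for Tia1, Arglu1 and Rreb1, and 0% of all 16228 tested genes were called in that fit.

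**Figure D4:**
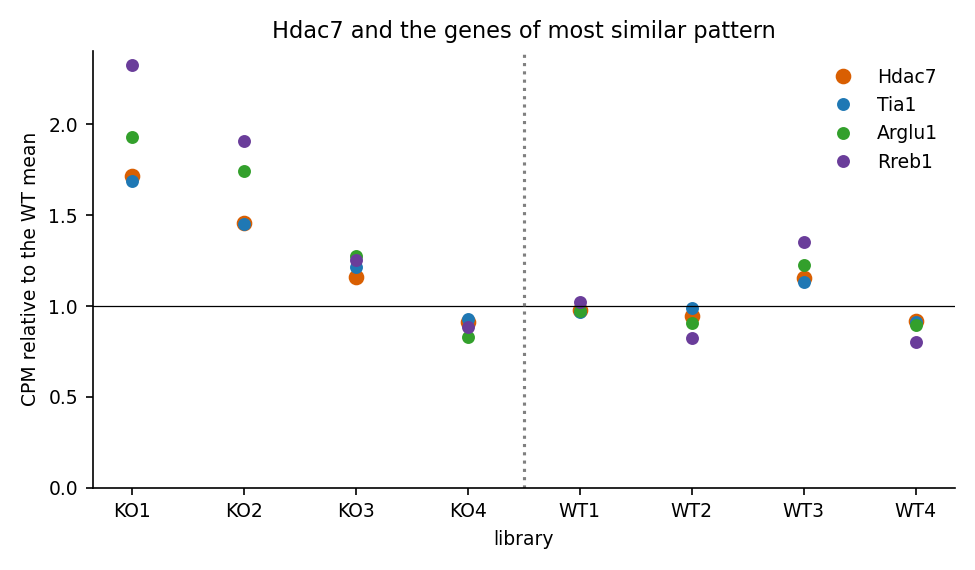
CPM of Hdac7 and of Tia1, Arglu1 and Rreb1 in each library, divided by the gene's WT mean, with KO libraries to the left of the dotted line and WT libraries to the right. For all 4 genes KO replicates 1 and 2 lie above every WT library and KO replicate 4 lies among the WT libraries or just below them. Tia1, Arglu1 and Rreb1 were selected for their likeness to Hdac7 over these same libraries, so the shared pattern is no further evidence.

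The partners of these enzymes were read from 8 lists with 78 entries, of which 76 genes were tested. None was called at an adjusted p under 0.05 in edgeR, beside 0% of all 16228 tested genes. Of the 76 genes, 34 had a log2 fold change above 0 and 42 below, with a median of -0.013. At an unadjusted p under 0.05 there was 1 gene, or 1.32% of those tested, which was lower in KO, beside 6.16% of all tested genes. That count, its gene and its direction depend on the fit. DESeq2 gave 4 genes, Sirt4 higher and Chd5, Rbbp7 and Ywhaz lower in KO, beside 1001 among all tested genes. With a library left out there were 0 to 7 genes, beside 556 to 1777 among all tested genes. Genes named below have the lowest p of their list, so their separation between genotypes is no further evidence, and their adjusted p was 0.796 to 0.881 in edgeR and 0.733 to 0.972 in DESeq2.

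In the NuRD complex, which couples Hdac1 and Hdac2 to chromatin remodelling, 5 of 13 genes lay above 0 and 8 below (median -0.062). Chd5, the neuronal remodeller, had 272, 247, 264 and 260 CPM in KO replicates 1 to 4 and 272.4, 278, 276 and 318 CPM in WT replicates 1 to 4. Rbbp7, a histone-binding subunit, had 129.5 ± 5.65 CPM in KO and 140.1 ± 4.94 CPM in WT, and Gatad2a 31.3 ± 0.724 CPM in KO and 34.3 ± 2.34 CPM in WT. The genotypes did not overlap for Chd5 and Rbbp7, though the nearest KO and WT libraries of each differed by less than 1 CPM. They were the only such genes of the 8 lists, 2 of 76, beside 3.8% of all tested genes. In the SIN3 complex, 6 of 13 tested genes lay above 0 and 7 below (median -0.017). Its scaffold Sin3a was the gene with an unadjusted p under 0.05, at 40.5 ± 2.82 CPM in KO and 44.8 ± 2.18 CPM in WT, a log2 fold change of -0.14 (SE 0.065), and its unadjusted p (0.0496) was under 0.05 in 5 of 16 alternative fits. Sap130 had 38.5 ± 2.496 CPM in KO and 41.4 ± 3.07 CPM in WT, and Sap30 2.86 ± 0.396 CPM in KO and 3.51 ± 0.731 CPM in WT.

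The CoREST list had 5 of 10 genes above 0 (median 0.027). Rest, the repressor of neuronal genes that recruits CoREST, had 8.82 ± 0.982 CPM in KO and 7.54 ± 1.05 CPM in WT. Zmym2 had 108 ± 10.7 CPM in KO and 118 ± 4.48 CPM in WT, and Phf21a 47.3 ± 3.52 CPM in KO and 43.8 ± 3.56 CPM in WT. The MiDAC and MIER list had 3 of 7 genes above 0 (median -0.0036), with Trerf1 at 46.0 ± 1.83 CPM in KO and 41.8 ± 5.00 CPM in WT. Mier1 had 49.7 ± 3.24 CPM in KO and 46.7 ± 1.76 CPM in WT, and Mier3 21.4 ± 2.18 CPM in KO and 22.7 ± 2.46 CPM in WT.

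Partners of class IIa enzymes were not called either. MEF2 factors, which these enzymes repress, had 1 of 3 tested genes above 0: Mef2c stood at 167 ± 15.2 CPM in KO and 154 ± 9.30 CPM in WT, Mef2d at 294 ± 13.3 CPM in KO and 320.2 ± 35.8 CPM in WT, and Mef2a at 252 ± 29.2 CPM in KO and 269 ± 23.6 CPM in WT. Of the kinases of the CaMK, protein kinase D, salt-inducible and MARK families, from which class IIa kinases come, 8 of 16 lay above 0 (median -0.0089). Prkd1, protein kinase D1, had 17.5 ± 1.07 CPM in KO and 15.5 ± 1.35 CPM in WT, Camk1g 26.4 ± 3.68 CPM in KO and 30.3 ± 2.76 CPM in WT, and the salt-inducible kinase gene Sik2 24.8 ± 0.706 CPM in KO and 26.8 ± 1.42 CPM in WT. The 14-3-3 genes had 1 of 7 above 0 (median -0.063), with Ywhaz at 418 ± 21.4 CPM in KO and 459.99 ± 25.3 CPM in WT. Ywhag had 1399 ± 124 CPM in KO and 1526 ± 74.7 CPM in WT, and Ywhab 745.5 ± 51.5 CPM in KO and 804.5 ± 55.9 CPM in WT.

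Sirtuins, the NAD-dependent deacetylases of class III, had 5 of 7 genes above 0 (median 0.033). The mitochondrial Sirt4 had 8.52, 7.60, 6.23 and 4.45 CPM in KO replicates 1 to 4 and 4.81, 4.80, 6.20 and 3.95 CPM in WT replicates 1 to 4. KO replicates 1 and 2 were the highest, and KO replicate 4 lay within the WT range. The nucleolar Sirt7 had 17.0 ± 4.51 CPM in KO and 14.4 ± 1.47 CPM in WT, with KO replicate 1 at 21.5 CPM and KO replicate 4 at 11.1 CPM. Sirt1, a nuclear sirtuin, had 19.0 ± 1.93 CPM in KO and 17.6 ± 1.12 CPM in WT.

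**Figure D5:**
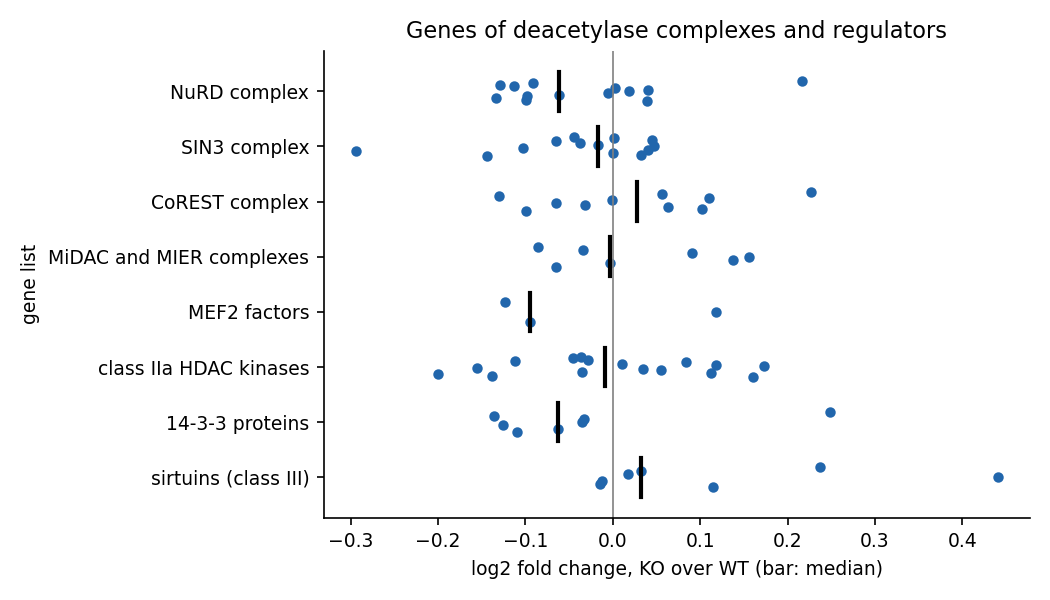
Log2 fold changes of KO over WT for the tested genes of 8 lists of deacetylase complexes, class IIa regulators and sirtuins, 1 point per gene, with the list median as a bar. Points lie on both sides of 0 in each list, from -0.29 for Sap30 to 0.44 for Sirt4, and none was called.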

How the data were processed

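Whole-number counts per Ensembl gene were deposited by the authors as raw values, per the file headers, with a column for each library. The submitters' processing notes name bcl2fastq 2.17.1.14 and mm10. For the aligner, the counter and whether counting used the strand kept by the library kit, the answer is not given in the sources used here. Symbols were found for 31292 of 31417 IDs, and positions came from GENCODE M21. edgeR 4.0.16 in R 4.3.3 compared 4 KO with 4 WT libraries across all genes (TMM, filterByExpr, robust quasi-likelihood F test, Benjamini-Hochberg adjustment, called under 0.05). The SE is the size of a log2 fold change over the square root of F, and 95% intervals use the t distribution. Libraries of a group differed by far more than sampling noise (chi-square over its degrees of freedom 8.85 to 40.9, genes with at least 20 counts), so all were kept apart. Intervals do not cover PCR duplication.

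Members and lists were chosen with earlier results of these data known. Beside the members, the rule named Dclk3, Hdac10, up to 3 genes of lowest p per partner list and 3 genes of most similar pattern for the 3 members of lowest p. The pipeline was tested on simulated data. Alternatives were DESeq2 1.42.0, limma-voom (limma 3.58.1), other scalings, filters, dispersion, a replicate block, other thresholds and each library left out. A further partner list is not reported here.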

Additional observations from a re-analysis of the deposited data

Results flagged for a closer look

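In 6 of 94 groups of 4 libraries that were examined, 1 library stood apart from the other 3 by a gap that, as a part of the group's range, exceeded Dixon's 95% critical value, where chance gives about 5%. None of the 10 histone deacetylase members was among them. For Hdac10 in WT, replicate 3 stood at 9.25 CPM against 6.48 to 6.78 CPM in the others (gap 0.891 of the range). For Dclk3 in WT, replicate 2 stood at 39.3 CPM against 20.8 to 23.5 CPM (gap 0.858). For Gatad2a in KO, replicate 3 stood at 32.4 CPM against 30.9 to 31.0 CPM (gap 0.910). For Chd5 in WT, replicate 4 stood at 318 CPM against 272.4 to 278 CPM (gap 0.885). For Sap130 in KO, replicate 3 stood at 42.3 CPM against 37.2 to 37.4 CPM (gap 0.949). For Ywhaz in KO, replicate 3 stood at 450.3 CPM against 404 to 410.2 CPM (gap 0.862).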

How the results depend on the processing

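No member was called under any of the 16 alternative fits or at adjusted p thresholds of 0.1 and 0.01, and the lowest adjusted p of a member over them was 0.247. Of 160 alternative values of the members, 148 kept their sign and 12 reversed. Hdac7, Hdac8 and Hdac9 kept theirs throughout, with 0.24 to 0.53, 0.088 to 0.23 and -0.15 to -0.035 over the libraries left out. With a library left out, log2 fold changes ran from -0.030 to 0.060 for Hdac1, -0.072 to 0.016 for Hdac2, -0.068 to 0.029 for Hdac3, -0.12 to 0.010 for Hdac4, -0.064 to 0.065 for Hdac5, -0.014 to 0.097 for Hdac6 and -0.11 to 0.0054 for Hdac11, and limma-voom gave -0.011 for Hdac5. Every reversed value was smaller than the SE of its gene, and the cause was not tested. Members above 0 numbered 3 to 6 with a library left out. Members at an unadjusted p under 0.05 numbered 0 with upper quartile factors, without a filter, with a filter of 1 CPM, with the replicate block and without KO replicate 1, KO replicate 2, WT replicate 2 or WT replicate 4, so 0 to 1 over the libraries left out. Without WT replicate 1 that member was Hdac8 (unadjusted p = 0.0301 by edgeR, against 0.0930 for Hdac7), and otherwise Hdac7. Partner genes at an unadjusted p under 0.05, counted over the same alternatives after seeing the data, numbered 0 to 7. Genes called overall numbered 5 by DESeq2, 1 with the replicate block and 0 to 1 with a library left out. Genes at an unadjusted p under 0.05 numbered 1505 by limma-voom and 556 to 1777 with a library left out, without WT replicate 4 and without KO replicate 4. Dclk3 was called by DESeq2, with the block and without WT replicate 2 (adjusted p = 3.93e-13, 0.00339 and 0.0121). Pairing by replicate number was not seen: deviations of same-numbered libraries correlated between -0.219 and 0.139, and 1 of 4 KO libraries was closest to its own number. With so few libraries this check cannot exclude a pairing. Counts per library were lowest for Hdac1 (194 to 290), Hdac8 (353 to 554) and Hdac7 (442 to 1026), and how far depth limits each member was not tested.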
